A study of Mus musculus with 19 samples.

Results

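The data are the levels of 9 genes for adhesion molecules of the immunoglobulin superfamily, Ncam1, F11r, Icam1, Icam2, Cadm1, Cadm3, Pecam1, Alcam and Jaml, in mouse bone marrow cells. The members were taken by name, and all 9 were found among the 50854 genes of the count table and among the 18652 genes that were tested. They were measured by bulk RNA-seq in 19 libraries of cells sorted from the bone marrow of female REP mice, aged 8 to 12 weeks, in which CCR1 and CCR2, among other chemokine receptors, are each marked by a fluorescent reporter. The monocyte populations below answer the study's questions, whether monocytes that carry CCR1 together with CCR2 differ from those that carry CCR2 alone, and how each responds to inflammation. These are resting CCR1/2+ve monocytes (n = 4), resting CCR2+ve monocytes (n = 4), inflamed CCR1/2+ve monocytes (n = 3) and inflamed CCR2+ve monocytes (n = 4). Inflamed mice had carried an osmotic pump releasing IL-3, IL-6, GM-CSF and IFN-α for 7 days. Whether the resting mice of these libraries had carried a pump with vehicle is not given in the sources used here. A further 4 libraries are labelled inflamed CCR1 (n = 4), and the study's methods do not describe how these cells were sorted. The populations are defined by antibody staining and reporters and were not single clones, and the full gate used for these libraries is not given in the sources used here. Other sorts of the study took CD11b+ Ly6C++ Ly6G- SiglecF- cells. The labels do not say which libraries came from separate mice, so p-values measure the spread between these libraries.

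Adhesion molecules of this superfamily are membrane proteins whose immunoglobulin-like domains bind either the same molecule on another cell or a different partner, often an integrin. On leukocytes and on the vessel wall they take part in firm adhesion, in crawling and in passage between endothelial cells. ICAM-1 and ICAM-2 are ligands of the β2 integrins. PECAM-1, NCAM1, ALCAM and JAM-A, the product of F11r, can each bind themselves on a neighbouring cell, and JAML binds the coxsackie and adenovirus receptor.

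Depth was 22268658 to 30502009 reads on genes per library. Levels are given in CPM, read counts scaled to library size after TMM normalization, a scale on which libraries are compared gene by gene. The TMM factors were 0.981 to 1.27 in resting libraries and 0.898 to 0.988 in inflamed ones. Ccr1 was at 112 CPM in resting CCR1/2+ve and 75.1 CPM in resting CCR2+ve monocytes, and at 310 and 209 CPM in their inflamed counterparts. The libraries labelled inflamed CCR1 held 38.0 CPM of Ccr1, the lowest mean of the 5 groups, and 5.82 CPM of Ccr2. Of 12 monocyte markers, 10 were lower there than in inflamed CCR2+ve monocytes at both cutoffs and none was higher, with summed levels of 7977 to 12631 CPM against 51097 to 62402 CPM. Csf1r, the receptor for macrophage colony-stimulating factor, was at 17.7 CPM, and the granule genes Ngp and Camp were at 86027 and 19963 CPM. The data go against the monocyte label of these 4 libraries, which are therefore called by their label only and are kept apart below. No library could be left out to avoid this, since it holds for the whole group. In bulk samples fewer cells of a type and less RNA per cell cannot be told apart.

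F11r, Icam1 and Jaml, which were high in inflamed monocytes and low in the libraries labelled inflamed CCR1, had their promoters in the RefSeq promoter table, and the 250 bases before each start site (GRCm38.p6) are shown here for what they hold. F11r lies at chr1:171437311-171437560, Icam1 at chr9:21015690-21015939 and Jaml at chr9:45078933-45079182, all on the plus strand. Capitals mark matches on either strand to the letters TTCNNNGAA (STAT), GGANNTTCC (NF-kB), GAAANNGAA (the core of the interferon-stimulated response element) and GAGGAA (the core bound by PU.1).
F11r: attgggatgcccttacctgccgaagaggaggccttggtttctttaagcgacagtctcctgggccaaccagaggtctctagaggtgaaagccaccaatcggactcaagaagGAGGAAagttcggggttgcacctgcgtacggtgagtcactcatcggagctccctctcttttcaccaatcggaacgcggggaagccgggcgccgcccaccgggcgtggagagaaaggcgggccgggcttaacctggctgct
Icam1: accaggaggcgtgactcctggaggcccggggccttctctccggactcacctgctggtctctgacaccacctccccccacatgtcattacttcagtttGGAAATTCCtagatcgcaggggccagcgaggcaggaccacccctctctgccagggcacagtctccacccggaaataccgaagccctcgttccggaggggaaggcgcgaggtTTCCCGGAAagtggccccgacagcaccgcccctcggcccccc
Jaml: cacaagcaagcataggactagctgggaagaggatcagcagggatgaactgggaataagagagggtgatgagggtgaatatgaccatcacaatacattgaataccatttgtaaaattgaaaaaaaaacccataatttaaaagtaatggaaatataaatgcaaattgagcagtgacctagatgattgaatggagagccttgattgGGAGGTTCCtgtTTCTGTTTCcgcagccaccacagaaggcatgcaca
The Icam1 promoter held the NF-kB letters 153 bases and the STAT letters 42 bases before the start. The Jaml promoter held the NF-kB letters at 47 bases and the interferon core at 35 bases before the start, and the F11r promoter held the PU.1 core at 140 bases. Of 32851 promoters of the same length, 3.59% held the NF-kB letters, 7.02% the STAT letters, 7.13% the interferon core and 23.3% the PU.1 core. Of the 9 members, 5 had a promoter in the table. Of those not shown, the Alcam promoter held the PU.1 core at 19 bases, though Alcam fell with inflammation, and the Cadm3 promoter held 0 matches. The match of letters is a description of the sequence and no measure of binding.

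Compared per kilobase of exon, which allows genes to be set beside each other, the leading member changed with inflammation. Icam2 led in both resting populations: CCR1/2+ve monocytes held 22.8 ± 2.99 CPM per kb (SD, n = 4) and CCR2+ve monocytes 19.9 ± 0.917 CPM per kb (SD, n = 4). F11r led in both inflamed populations, where CCR1/2+ve monocytes held 73.5 ± 12.5 CPM per kb (SD, n = 3) and CCR2+ve monocytes 93.2 ± 9.65 CPM per kb (SD, n = 4). In resting cells it had ranked 7 of 9. Ncam1 led in the libraries labelled inflamed CCR1 with 75.2 ± 8.23 CPM per kb (SD, n = 4). F11r made up a mean of 0.407% of the summed level of the 9 members in resting CCR1/2+ve monocytes and 47.4% in inflamed CCR1/2+ve monocytes, and 1.03% and 57.7% in the CCR2+ve monocytes. The summed level itself was 62.3 CPM per kb in resting CCR1/2+ve and 60.4 CPM per kb in resting CCR2+ve monocytes, and 154 and 161 CPM per kb after inflammation.

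**Figure D1:**
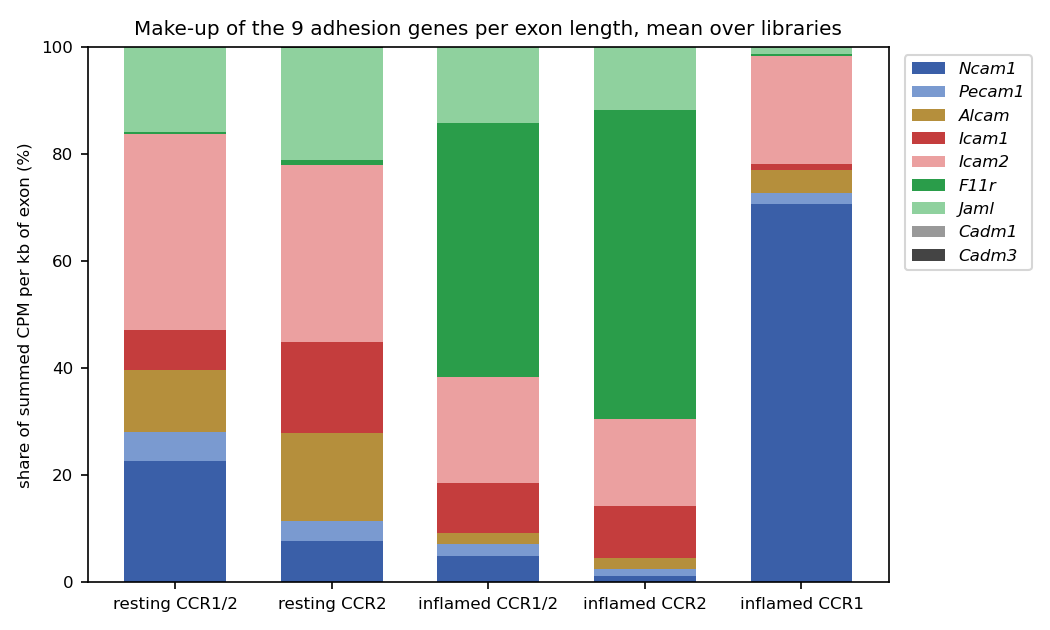
Share of each of the 9 genes in their summed level, in percent of CPM per kb of exon (vertical axis), as the mean over the libraries of each group (horizontal axis). F11r is a thin band in the resting groups and reaches 47.4% and 57.7% in inflamed CCR1/2+ve and CCR2+ve monocytes, while Ncam1 takes 70.7% in the libraries labelled inflamed CCR1.

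Genes were called when edgeR's quasi-likelihood test gave an adjusted p below 0.05 over all 18652 genes tested and the log2 fold change was at least 1 in size. The members fell into those that rose with inflammation (F11r, and in CCR1/2+ve monocytes also Icam1 and Jaml), those that fell (Ncam1, Alcam, and in CCR2+ve monocytes also Cadm3), and those that passed both cutoffs in neither population (Icam2, Pecam1 and Cadm1). In CCR2+ve monocytes 1 of the 9 members was higher and 3 were lower after inflammation, where 9.37% and 19.2% of all genes tested were higher and lower. In CCR1/2+ve monocytes 3 were higher and 2 were lower, where the shares over all genes were 9.16% and 19.4%. Between resting CCR1/2+ve and CCR2+ve monocytes 1 member was higher in CCR1/2+ve monocytes and 3 were lower, against 2.34% and 1.9% of all genes. Between the inflamed populations 1 member was higher in CCR1/2+ve monocytes and 0 were lower, against 0.102% and 0.0429% of all genes. These last shares rest on 27 calls over all genes, which were 15 to 42 with 1 library left out. In that last comparison 4 members had an unadjusted p below 0.05, namely Ncam1, Pecam1, F11r and Cadm3, the last with 2 reads against 20. The share of all genes at that level is not given here, and F11r ranked only 700 of 18652 by p.

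**Figure D2:**
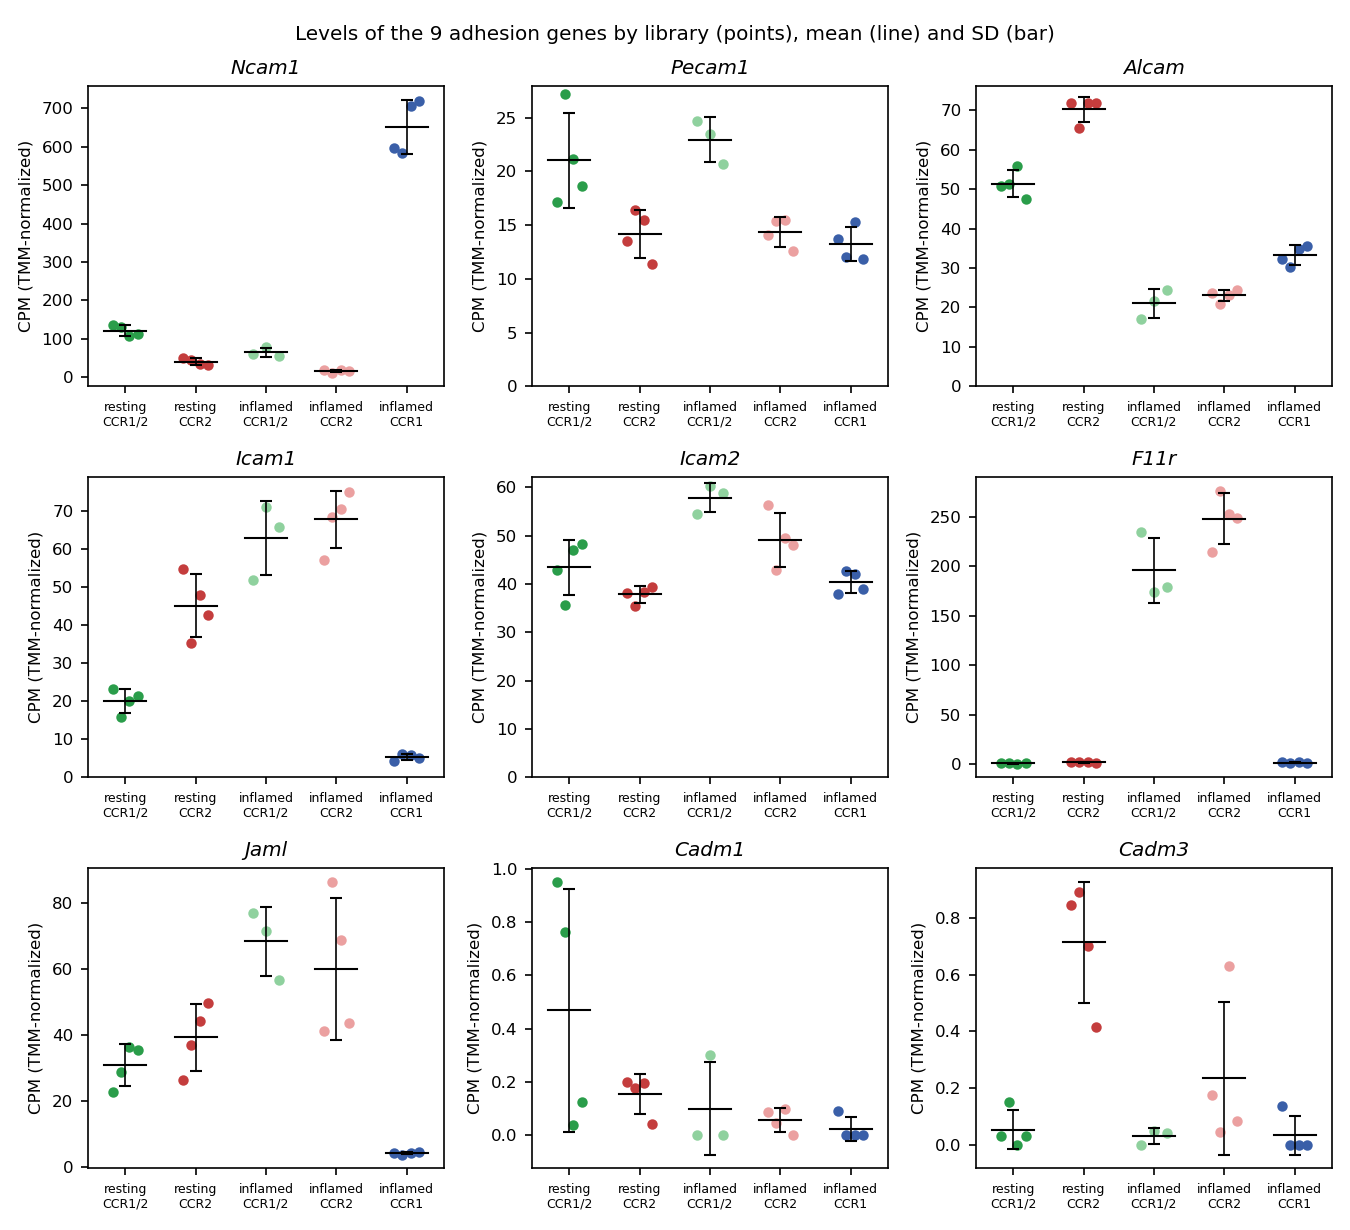
Level of each gene in CPM (vertical axes, linear, each with its own scale) in every library (points) of the 5 groups (horizontal axes), with the mean (line) and SD (bar). F11r lies between 174 and 277 CPM in the inflamed CCR1/2+ve and CCR2+ve monocytes and below 2.05 CPM in each library of the other groups except the one at that value.

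F11r encodes JAM-A, a junctional protein of epithelium, endothelium and leukocytes that binds itself and the integrin LFA-1. It is a gene of chromosome 1 (GRCm38 chr1:171437535-171464603, plus strand), and none of its exon bases overlap another gene. In resting CCR1/2+ve monocytes it was at 1.02, 0.611, 0.314 and 0.739 CPM, and in resting CCR2+ve monocytes at 2.05, 1.57, 1.91 and 1.08 CPM. In inflamed CCR1/2+ve monocytes it was at 234, 174 and 179 CPM, and in inflamed CCR2+ve monocytes at 214, 277, 253 and 249 CPM. Each inflamed library was far above each resting library, and the inflamed populations overlapped each other. The log2 fold change was 7.15 (SE 0.18, adjusted p = 2.95e-12) in CCR2+ve monocytes, a 142-fold rise, and 8.02 (SE 0.26, adjusted p = 7.77e-09) in CCR1/2+ve monocytes, a 260-fold rise. By p it ranked 4 of the 18652 genes tested in CCR2+ve cells and 131 in CCR1/2+ve cells, and by the size of the fold change it ranked 31 and 22. The resting libraries held 8 to 51 reads of F11r and the inflamed monocyte libraries 3488 to 5951, so that the fold rests on few reads on the resting side. The difference between the rises was not past the threshold (interaction 0.83, SE 0.31, adjusted p = 0.26).

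At rest F11r was lower in CCR1/2+ve monocytes, with groups that did not overlap (1.02 CPM at the highest against 1.08 CPM at the lowest) and an adjusted p of 0.0471. That call was lost in 6 of the 8 fits that left out 1 library, with an adjusted p of up to 0.137 without resting CCR2 replicate 1. It was also lost without resting CCR2 replicates 2 and 3 and without resting CCR1/2 replicates 2, 3 and 4. Between the inflamed populations F11r was at a log2 difference of −0.36 (SE 0.13, adjusted p = 0.417).

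Among the genes whose pattern over the 19 libraries was most like that of F11r were Slc52a3, a riboflavin transporter (Pearson r 0.991 on log2(CPM + 1)), Chid1 (0.989) and Rasgrp4, an exchange factor for Ras (0.988). Slc52a3 was at 0.866 and 1.52 CPM in resting CCR1/2+ve and CCR2+ve monocytes and at 82.4 and 82.1 CPM in the inflamed ones. These correlations are over libraries that share the same groups and are given as descriptions.

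Within 100 kb of the ends of F11r, 12 of 18 annotated genes were tested. Nectin4, another adhesion molecule of the superfamily, rose by a log2 fold change of 1.67 in CCR2+ve cells and 2.43 in CCR1/2+ve cells (adjusted p = 3.20e-06 and 1.89e-05). Arhgap30, which encodes a GTPase-activating protein, rose by 1.71 and 1.82 on the log2 scale, and Usf1, a transcription factor gene, by 1.14 and 1.26. Cd244a, the gene of a SLAM-family receptor, was at 0.85 in CCR2+ve monocytes and rose by 1.85 in CCR1/2+ve monocytes (adjusted p = 0.00144 in each). Alyref2 fell by 1.30 and 1.11 on the log2 scale. Dedd, Pfdn2 and Tstd1, which lie between or beside these genes, passed the adjusted p threshold in neither population, with log2 fold changes from −0.06 to 0.52. Of the 12 tested neighbours, none reached the 142-fold and 260-fold changes of F11r.

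**Figure D3:**
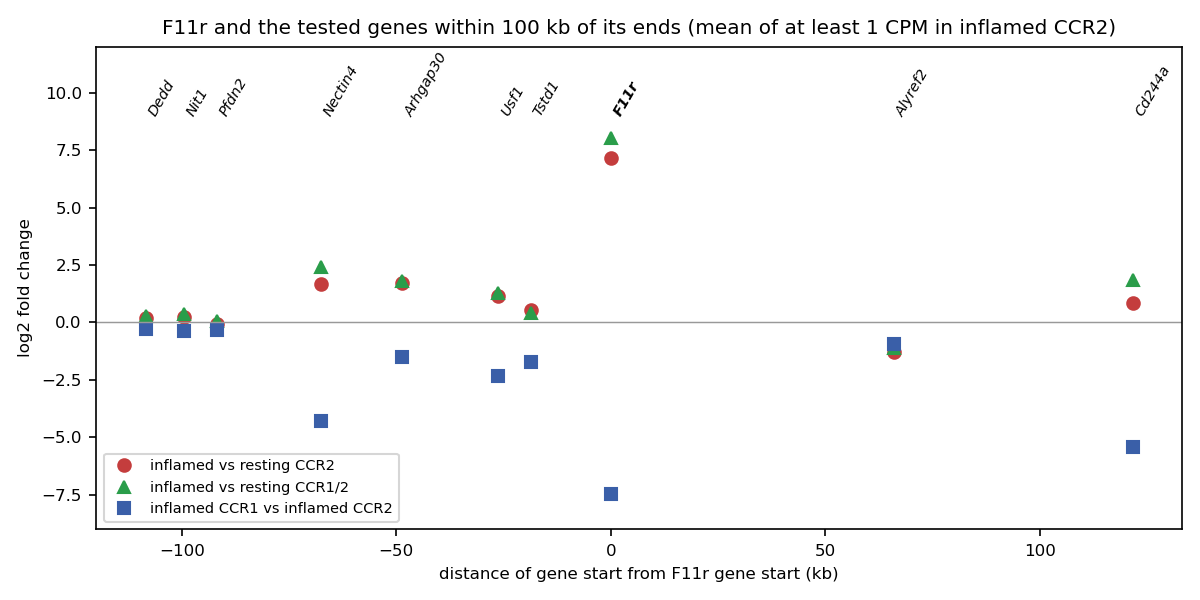
Log2 fold change (vertical axis) of F11r and the tested genes within 100 kb of its ends with a mean of at least 1 CPM in inflamed CCR2+ve monocytes, by distance of their gene start from that of F11r in kb (horizontal axis), for 3 comparisons (symbols). F11r stands at 7.15 and 8.02 in the inflamed against resting comparisons. The highest of the others shown are Arhgap30 at 1.71 in CCR2+ve and Nectin4 at 2.43 in CCR1/2+ve monocytes. Genes under the 1 CPM level, among them B930036N10Rik, which fell with inflammation, are not shown.

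Icam1 encodes ICAM-1, the main ligand of LFA-1 and Mac-1, which is induced by inflammatory cytokines in many cell types. It is a gene of chromosome 9 (GRCm38 chr9:21015985-21028817, plus strand), and 11.7% of its exon bases overlap a gene on the opposite strand, Gm47079, whose reads cannot be told apart where the counts were not taken by strand. Resting CCR1/2+ve monocytes were at 23.2, 15.8, 20.1 and 21.3 CPM and resting CCR2+ve monocytes at 54.6, 35.3, 47.9 and 42.8 CPM. Inflamed CCR1/2+ve monocytes were at 51.9, 70.9 and 65.8 CPM and inflamed CCR2+ve monocytes at 57.2, 68.3, 70.4 and 75.1 CPM. The resting groups were apart and the inflamed groups overlapped. Icam1 rose in CCR1/2+ve monocytes (log2 fold change 1.52, SE 0.15, adjusted p = 7.03e-06). In CCR2+ve monocytes it passed the adjusted p threshold but stayed under the fold cutoff (0.52, SE 0.14, adjusted p = 0.00613). The log2 difference of CCR1/2+ve minus CCR2+ve monocytes was −1.09 at rest (adjusted p = 0.000297) and −0.12 (SE 0.15, adjusted p = 0.850) after inflammation. The interaction, the difference between the rises in the fit over the 15 libraries, was 0.96 (SE 0.21, adjusted p = 0.0559), just above the threshold, where 0.397% of all genes passed it (74 genes, and 0 to 253 with 1 library left out) and 0 of the 9 members did. With the replicate number as a block it was 0.98 and passed (adjusted p = 0.0176), as it did with RLE factors (0.0429), DESeq2 (0.00208), no filter (0.0233) and filterByExpr (0.0467), and with 1 library left out the adjusted p ranged from 0.0267 to 0.197. At an unadjusted p below 0.05 the interaction passed for 2 members, Icam1 and F11r, and the share of all genes at that level is not given here. Without resting CCR2 replicate 1 the resting difference was −0.97, under the fold cutoff, with an adjusted p of 0.00116.

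Beside Icam1, markers of dendritic cells moved at rest: of 10, 6 were lower in CCR1/2+ve than in CCR2+ve monocytes at both cutoffs and 0 were higher, with summed levels of 226 to 515 CPM against 944 to 2473 CPM. Their part in the difference was not tested. Among the genes most like Icam1 over the 19 libraries were Prr5l (r 0.991), Irf7, an interferon-regulated transcription factor (0.989), and Arl6ip5 (0.988). Irf7 was at 166 and 372 CPM in resting CCR1/2+ve and CCR2+ve monocytes and at 593 and 679 CPM in the inflamed ones.

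Icam2, which encodes the other β2 integrin ligand and is expressed without induction on leukocytes and endothelium, moved little. It was at 35.7 to 48.3 CPM in resting CCR1/2+ve monocytes, 35.3 to 39.4 CPM in resting CCR2+ve monocytes, 54.5 to 60.3 CPM in inflamed CCR1/2+ve monocytes and 42.8 to 56.4 CPM in inflamed CCR2+ve monocytes. The inflamed libraries of each population lay above its resting ones, by log2 fold changes of 0.29 in CCR1/2+ve monocytes (SE 0.11, adjusted p = 0.0476) and 0.31 in CCR2+ve monocytes (SE 0.11, adjusted p = 0.0343), both under the fold cutoff. Those p-values crossed the threshold in some fits that left out 1 library, with adjusted p of up to 0.141 and 0.109.

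Jaml encodes a leukocyte adhesion protein whose partner, the coxsackie and adenovirus receptor, is encoded by Cxadr. It is a gene of chromosome 9 (GRCm38 chr9:45079183-45108534, plus strand), and 12.8% of its exon bases overlap Gm10684 on the opposite strand. Resting CCR1/2+ve monocytes were at 22.7, 28.7, 36.2 and 35.3 CPM and inflamed CCR1/2+ve monocytes at 76.9, 71.3 and 56.6 CPM, without overlap. Resting CCR2+ve monocytes were at 26.2, 36.9, 44.2 and 49.7 CPM and inflamed CCR2+ve monocytes at 41.0, 86.3, 68.6 and 43.7 CPM, with overlap. In CCR1/2+ve monocytes Jaml rose by a log2 fold change of 1.03 (SE 0.15, adjusted p = 0.000141), and in CCR2+ve monocytes the log2 fold change was 0.54 (SE 0.23, adjusted p = 0.0698). The interaction for Jaml was 0.45 (SE 0.32, adjusted p = 0.598), so no difference between the rises was shown. The fold for Jaml in CCR1/2+ve monocytes lay close to the cutoff, at 0.95, 0.94 and 0.99 without resting CCR1/2 replicate 1, inflamed CCR1/2 replicate 2 and inflamed CCR1/2 replicate 3, with adjusted p of at most 0.00162. It was 0.91 with the replicate number as a block. Cxadr itself was at 0.241 CPM in resting CCR1/2+ve and 0.163 CPM in inflamed CCR2+ve monocytes. The gene most like Jaml over the 19 libraries was Adgre1, which encodes the macrophage antigen F4/80 (r 0.982).

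Ncam1, which encodes the neural cell adhesion molecule, also known on natural killer cells as CD56 in humans, was the member that passed both cutoffs between the populations at rest and again after inflammation. It is a gene of chromosome 9 (GRCm38 chr9:49502136-49798925, minus strand), and 4.81% of its exon bases overlap Gm11149 on the opposite strand. Resting CCR1/2+ve monocytes were at 136, 131, 107 and 112 CPM and resting CCR2+ve monocytes at 50.3, 44.5, 33.7 and 31.6 CPM. Inflamed CCR1/2+ve monocytes were at 61.1, 78.0 and 54.9 CPM and inflamed CCR2+ve monocytes at 17.7, 11.9, 18.6 and 16.1 CPM. The 4 groups did not overlap, in the order resting CCR1/2+ve, inflamed CCR1/2+ve, resting CCR2+ve and inflamed CCR2+ve, with neighbours in that order 1.88, 1.62 and 2.49 times apart in their means. Between the inflamed populations Ncam1 was higher in CCR1/2+ve monocytes by a log2 fold change of 1.99 (SE 0.18, adjusted p = 0.000347), ranking 3 of the 18652 genes by p, and it ranked 35 in the resting comparison. Inflammation lowered it in CCR2+ve monocytes, where it fell by 1.39 on the log2 scale (SE 0.19, adjusted p = 1.62e-05). It fell by 1.05 in CCR1/2+ve monocytes (SE 0.15, adjusted p = 0.000159), and there the fold fell below the cutoff under several settings (0.91 to 1.00 in size) while the adjusted p stayed at or below 0.00102. The interaction for Ncam1 was 0.30 (SE 0.26, adjusted p = 0.670).

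Some markers of other cells and of the cell cycle also differed between these groups, with Ncam1 or against it. Of 12 neutrophil markers, 5 were higher in resting CCR1/2+ve than in resting CCR2+ve monocytes at both cutoffs and 0 were lower, with summed levels of 2634 to 3288 CPM against 842 to 1146 CPM, and after inflammation 2 were higher, with 3048 to 3738 CPM against 1721 to 2050 CPM. Of 8 progenitor markers with a row, 4 were higher and 1 lower at rest, with summed levels of 2990 to 6380 CPM against 459 to 1590 CPM. Of 11 cycling genes tested, 7 were higher and 0 lower at rest (2922 to 3633 CPM against 1567 to 1961 CPM), and of 10 tissue macrophage markers 5 were higher and 2 lower (219 to 296 CPM against 287 to 399 CPM). With inflammation, where Ncam1 fell, 4 progenitor markers were lower and 1 higher in CCR2+ve monocytes (median log2 fold change −2.92) and 6 were lower and 0 higher in CCR1/2+ve monocytes (median −2.83), with inflamed sums of 276 to 552 CPM and 724 to 1150 CPM. Of the neutrophil markers, 6 were higher with inflammation in each population, while 2 were lower in CCR1/2+ve cells and 0 in CCR2+ve cells. Of the 11 cycling genes, 4 were higher and 0 lower with inflammation in CCR2+ve cells, and 0 were higher and 1 lower in CCR1/2+ve cells. Between the inflamed populations 0 cycling genes and 0 progenitor markers passed both cutoffs. Ly6g, a neutrophil surface marker, was at 0.490 and 0.446 CPM in the resting populations. Of 10 markers of T and NK cells, 1 was higher and 3 were lower in resting CCR1/2+ve monocytes, the higher one being Nkg7 at 48.4 against 8.33 CPM, while Ncr1 and Klrb1c, which define natural killer cells, were at 0.0392 and 0.128 CPM in resting CCR1/2+ve monocytes. The part of these cells in the differences of Ncam1 was not tested. The genes most like Ncam1 over the 19 libraries were Cldn15, a claudin (r 0.982), 9830107B12Rik (0.971) and Mgst2, a glutathione transferase (0.971).

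Pecam1 encodes PECAM-1, a homophilic receptor of endothelium, platelets and leukocytes. It was at 17.2, 27.1, 21.2 and 18.6 CPM in resting CCR1/2+ve monocytes and at 13.5, 16.4, 15.5 and 11.3 CPM in resting CCR2+ve monocytes. Inflamed CCR1/2+ve monocytes were at 24.7, 23.5 and 20.6 CPM and inflamed CCR2+ve monocytes at 14.0, 15.3, 15.5 and 12.6 CPM. The CCR1/2+ve libraries lay above the CCR2+ve libraries in both states, with log2 differences of 0.65 at rest (SE 0.17, adjusted p = 0.0176) and 0.66 after inflammation (SE 0.15, adjusted p = 0.145). Both were under the fold cutoff, and the second did not pass the test over all genes. At rest the adjusted p ranged from 0.0126 to 0.0649 with 1 library left out, so it did not pass in every fit. Inflammation gave log2 fold changes of −0.01 in CCR1/2+ve and −0.06 in CCR2+ve monocytes, with SEs of 0.18 and 0.15, and both changed sign under other settings. Of 10 endothelial markers 2 were higher and 1 lower in resting CCR1/2+ve monocytes, with summed levels of 8.35 to 10.6 CPM against 17.2 to 27.5 CPM. The higher ones were Egfl7 at 0.898 against 0.292 CPM and Stab2 at 0.428 against 0.0409 CPM, and most of the sum was Flt1, at 7.71 against 20.6 CPM. Cdh5 and Emcn, which define endothelium, were at 0.0965 and 0 CPM in resting CCR1/2+ve monocytes, and Robo4 had no read in any of the 5 groups. The part of other cells in the difference of Pecam1 was not tested. Of 10 markers of megakaryocytes and platelets, 0 were higher and 0 lower, and their sum was 0.673 to 2.19 CPM.

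Alcam encodes ALCAM, which binds itself and CD6. It fell with inflammation in both populations. Resting CCR1/2+ve monocytes were at 50.7, 51.3, 55.9 and 47.6 CPM and resting CCR2+ve monocytes at 71.7, 65.6, 71.9 and 71.8 CPM. Inflamed CCR1/2+ve monocytes were at 17.1, 21.6 and 24.4 CPM and inflamed CCR2+ve monocytes at 23.8, 21.0, 23.1 and 24.4 CPM. The resting groups were apart, the inflamed groups overlapped, and each inflamed library lay below each resting one. Alcam fell by 1.68 on the log2 scale in CCR2+ve monocytes (SE 0.11, adjusted p = 5.51e-09) and by 1.42 in CCR1/2+ve monocytes (SE 0.14, adjusted p = 8.62e-06). The resting difference of −0.37 (SE 0.08, adjusted p = 0.00465) passed the adjusted p threshold only. The gene most like Alcam over the 19 libraries was Rbpms, an RNA-binding protein gene (r 0.987), which was at 38.3 and 73.1 CPM in resting CCR1/2+ve and CCR2+ve monocytes and at 1.71 and 1.59 CPM in the inflamed ones.

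Erythroid markers moved with inflammation too. Of 8, 8 were lower in inflamed than in resting CCR2+ve monocytes and 7 were lower in CCR1/2+ve monocytes at both cutoffs. Their summed levels were 57.8 to 178 CPM and 93.6 to 295 CPM in resting CCR1/2+ve and CCR2+ve monocytes and below 4.14 CPM in every inflamed library of both, apart from the one at that value. Their part in the fall of Alcam was not tested.

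Cadm1 and Cadm3, which encode adhesion molecules of the nectin-like family, were at or near the floor of detection. Cadm3 had 1, 5, 0 and 1 reads in resting CCR1/2+ve monocytes and 21, 25, 18 and 10 reads in resting CCR2+ve monocytes, without overlap, and the log2 fold change was −3.48 (SE 0.71, adjusted p = 0.00521). Inflamed CCR2+ve monocytes had 4, 1, 13 and 2 reads, overlapping the resting ones, and Cadm3 fell by 1.68 on the log2 scale (SE 0.65, adjusted p = 0.0449). That last call was lost in 6 of the 8 fits that left out 1 library, with an adjusted p of up to 0.109. It was lost without resting CCR2 replicate 1, 2 or 3 and without inflamed CCR2 replicate 1, 2 or 4. Inflamed CCR1/2+ve monocytes held 0, 1 and 1 reads. Of the exon bases of Cadm3, 4.98% overlap Ackr1 on the same strand.

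Cadm1 had 29, 25, 1 and 4 reads in resting CCR1/2+ve monocytes, 5, 5, 5 and 1 reads in resting CCR2+ve monocytes, 0, 6 and 0 reads in inflamed CCR1/2+ve monocytes and 2, 1, 2 and 0 reads in inflamed CCR2+ve monocytes. Resting CCR1/2 replicates 1 and 2 were high and the other two lay among the other groups. Cadm1 passed both cutoffs in none of the 6 comparisons made. Without inflamed CCR1/2 replicate 3, which held the 6 reads, it passed them in inflamed against resting CCR1/2+ve monocytes (log2 fold change −6.79, adjusted p = 0.0448), a value that rests on the high pair of resting libraries and on inflamed libraries with 0 reads.

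**Figure D4:**
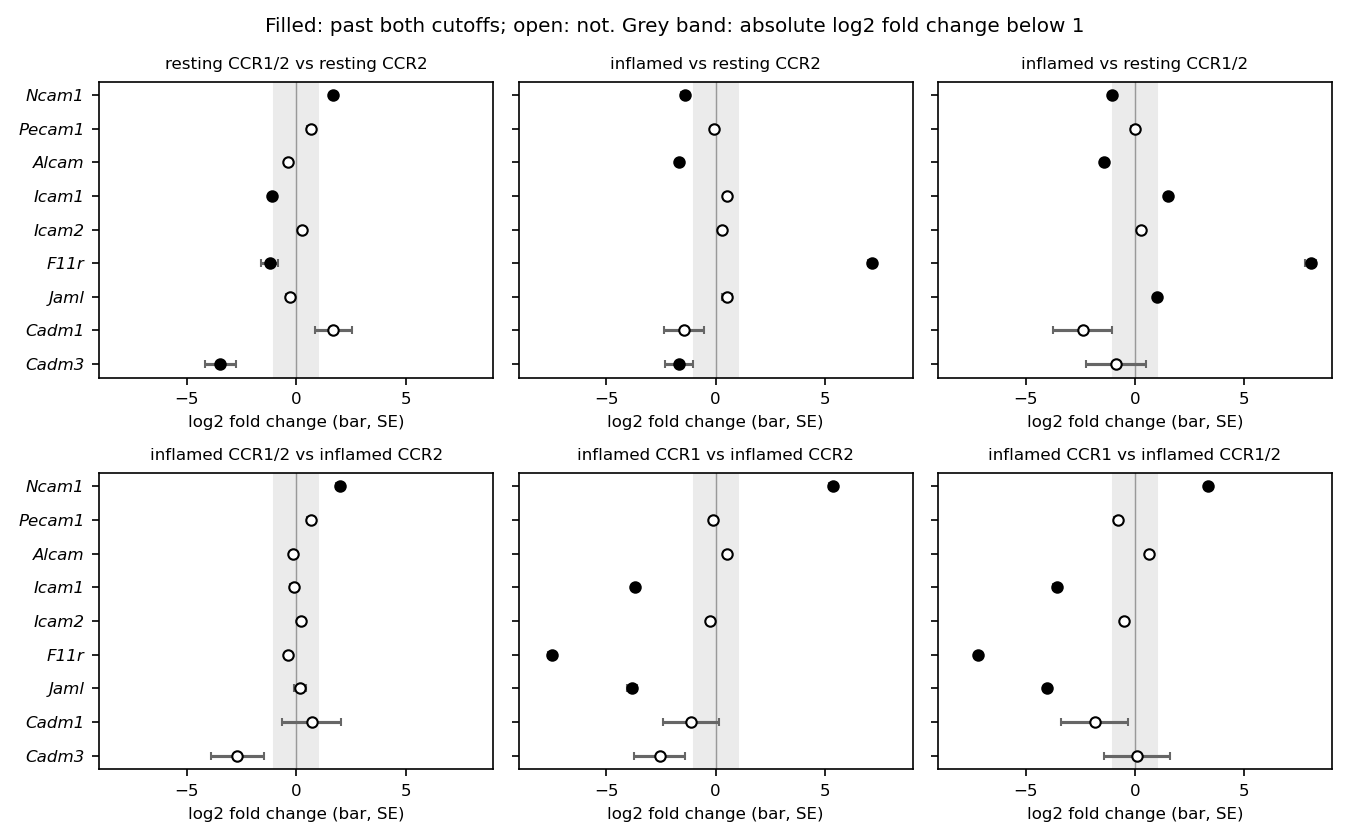
Log2 fold change (horizontal axes, bar for the SE) of the 9 genes (vertical axes) in 6 comparisons, the first group named against the second. Filled points passed both cutoffs, open points did not, and the grey band marks log2 fold changes under 1 in size.

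The libraries labelled inflamed CCR1 differed from the inflamed monocytes at both cutoffs in 4 of the 9 members. Against inflamed CCR2+ve monocytes 1 member was higher and 3 were lower, where 14.4% of all genes were higher and 16.8% lower. Against inflamed CCR1/2+ve monocytes the counts were again 1 and 3, where the shares were 13.2% and 14.6%. These comparisons share the inflamed CCR1 libraries.

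Ncam1 was at 596, 584, 707 and 719 CPM in these libraries, above each of the 15 monocyte libraries, and its log2 fold change was 5.34 (SE 0.16, adjusted p = 4.32e-14) against CCR2+ve and 3.33 (SE 0.14, adjusted p = 3.81e-10) against CCR1/2+ve monocytes. F11r was at 1.59, 1.13, 1.57 and 1.18 CPM, which overlapped the resting CCR2+ve monocytes and lay far below both inflamed populations (log2 fold change −7.49, SE 0.16, and −7.15, SE 0.17). Icam1 was at 4.19, 6.15, 5.96 and 5.04 CPM, below each monocyte library (−3.66, SE 0.16, and −3.56, SE 0.17). Jaml was at 4.23, 3.71, 4.30 and 4.52 CPM, also below each monocyte library (−3.83, SE 0.23, and −4.02, SE 0.15). Alcam was at 30.3 to 35.7 CPM, between the resting and the inflamed monocytes. Icam2, at 37.8 to 42.6 CPM, and Pecam1, at 11.9 to 15.2 CPM, lay within the range of the resting monocytes. Icam2 lay below both inflamed populations without overlap (−0.28, adjusted p = 0.0645, against CCR2+ve and −0.52, adjusted p = 0.00174, against CCR1/2+ve monocytes). Pecam1 overlapped inflamed CCR2+ve monocytes (−0.11, SE 0.15) and lay below inflamed CCR1/2+ve monocytes without overlap (−0.79, adjusted p = 0.000534). All of these were under the fold cutoff. Cadm1 had 2, 0, 0 and 0 reads and Cadm3 had 3, 0, 0 and 0 reads.

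Beside these differences, 10 of 12 neutrophil markers were higher and 1 lower than in inflamed CCR2+ve monocytes, with summed levels of 104953 to 153555 CPM, and 5 of 8 progenitor markers were higher and 1 lower, with Elane and Mpo at 24887 and 20730 CPM and Kit, a receptor of early progenitors, at 160 CPM. Nkg7 was at 1562 CPM, while Ncr1 was listed at 0.00. Of the endothelial markers, Tie1 was at 11.9 CPM and Flt1 at 15.4 CPM, and Cdh5, Emcn and Robo4 were at 0.0227, 0 and 0 CPM. The part of other cells in the levels of Ncam1, F11r, Icam1 and Jaml was not tested.

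The other adhesion genes of the superfamily, the binding partners of the members and their cytoplasmic adapters were followed as 3 lists. Of 38 other adhesion genes 29 were tested, of 16 partners 15, and of 22 adapters 17. Between resting CCR1/2+ve and CCR2+ve monocytes 1 adhesion gene was higher and 4 were lower, 2 partners were higher, and 1 adapter was higher and 1 lower. Over all genes 2.34% were higher and 1.9% lower. The median log2 fold changes of the lists were −0.21, −0.27 and −0.21 beside 0.03 over all genes. Vcam1, a ligand of the integrin α4β1 known on endothelium and marrow stroma, had a mean of 26.2 CPM in CCR1/2+ve monocytes, with libraries from 14.0 to 47.2 CPM, and of 1.69 CPM in CCR2+ve monocytes, with libraries from 0.713 to 3.28 CPM. Nectin1 was at 2.01 against 5.95 CPM, a log2 fold change of −1.49 (SE 0.29, adjusted p = 0.00411), and Cd200, an inhibitory ligand, was lower as well (−3.18, SE 0.80, adjusted p = 0.0164) at 0.506 CPM or less in both groups' means. Of the partners, Gpc1, a glypican that can carry growth factors, was higher by 1.06 (SE 0.19, adjusted p = 0.00233). Itgad, the α subunit of a β2 integrin, was higher at 0.963 CPM against 0.0198 CPM. Beside these, of 10 tissue macrophage markers, a list that itself holds Vcam1, 5 were higher and 2 lower (median log2 fold change 2.01), with C1qa at 5.31 against 0.987 CPM, C1qb at 12.0 against 3.86 CPM and C1qc at 10.7 against 2.30 CPM. Siglec1 and Adgre1 of the same list had lower means, at 1.59 against 5.05 CPM and 184 against 314 CPM. The list summed to 219 to 296 CPM in resting CCR1/2+ve and 287 to 399 CPM in resting CCR2+ve monocytes. Of 7 marrow stroma markers tested 0 were higher and 0 lower, and the list summed to at most 2.95 CPM in any resting library. The part of these cells in the levels of Vcam1 and Itgad was not tested. Of the adapters, Actn1, an actinin, was higher by 1.66 (adjusted p = 0.0194).

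The lists held calls in both directions with inflammation, beside 9.37% higher and 19.2% lower over all genes in CCR2+ve monocytes and 9.16% and 19.4% in CCR1/2+ve monocytes. In CCR2+ve monocytes 7 of the 29 adhesion genes were higher and 4 lower, 4 of the 15 partners were higher and 3 lower, and 2 of the 17 adapters were higher and 4 lower, with medians of −0.26, 0.15 and −0.40 beside −0.10 over all genes. In CCR1/2+ve monocytes the counts were 4 and 3, 5 and 3, and 2 and 4, with medians of −0.07, −0.02 and −0.33 beside −0.25 over all genes. The 3 of 15 partners that were lower are close to the share over all genes in each population. The subunits of LFA-1, the integrin that binds ICAM-1, ICAM-2 and JAM-A, are encoded by Itgal and Itgb2. Itgal was at 138 ± 15.4 CPM (SD, n = 4) in resting and 448 ± 89.4 CPM (SD, n = 3) in inflamed CCR1/2+ve monocytes, a log2 fold change of 1.57 (SE 0.13, adjusted p = 1.36e-06). Itgb2 was at 872 ± 114 CPM (SD, n = 4) and 2279 ± 90.7 CPM (SD, n = 3), a log2 fold change of 1.26 (SE 0.09, adjusted p = 3.23e-07). Icam1 and F11r, which encode ligands of LFA-1, also rose in inflamed CCR1/2+ve monocytes. In CCR2+ve monocytes Itgal was at 188 ± 9.98 CPM (SD, n = 4) at rest and 434 ± 103 CPM (SD, n = 4) after inflammation. Itgb2 was at 1107 ± 112 CPM (SD, n = 4) and 1908 ± 33.8 CPM (SD, n = 4) there. Whether Itgal and Itgb2 passed the cutoffs in CCR2+ve monocytes is not given here. F11r rose in these cells too, while Icam1 stayed under the fold cutoff.

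Itgb1, the β1 integrin subunit, fell by 1.90 on the log2 scale in CCR1/2+ve and by 2.14 in CCR2+ve monocytes, to 56.5 and 69.0 CPM. Cd38, which encodes a ligand of PECAM-1, rose in CCR2+ve monocytes from 0.966 ± 0.579 CPM (SD, n = 4) to 50.6 ± 25.7 CPM (SD, n = 4), a log2 fold change of 5.64 (SE 0.47, adjusted p = 2.09e-06). In CCR1/2+ve monocytes Cd38 was at 1.51 ± 0.413 CPM (SD, n = 4) at rest and 58.4 ± 39.2 CPM (SD, n = 3) after inflammation. Fn1, fibronectin, rose in CCR2+ve monocytes by 1.12 on the log2 scale (SE 0.12). In CCR1/2+ve monocytes Fn1 was at 1045 CPM at rest and 2814 CPM after inflammation. Cd47, the ligand of the inhibitory receptor SIRPα, fell by 2.86 in CCR2+ve and by 2.00 in CCR1/2+ve monocytes on the log2 scale, and Bsg, basigin, had log2 fold changes of −2.55 and −2.97. Cd200r1, an inhibitory receptor, rose by 1.61 and 1.57. Of the adapters, Msn, moesin, which links ICAMs to actin, rose by 1.02 and 1.52, its relative Rdx, radixin, fell by 1.37 and 1.17, and the small GTPase gene Rap1b fell by 2.62 and 1.89.

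Between inflamed CCR1/2+ve and CCR2+ve monocytes the lists held 1 call, Nectin1, which was lower in CCR1/2+ve monocytes at 3.26 against 9.38 CPM (log2 fold change −1.54, SE 0.27, adjusted p = 0.0412). Over all genes 0.102% were higher and 0.0429% lower. The medians of the lists were −0.27, −0.03 and 0.07 beside −0.03 over all genes.

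In the libraries labelled inflamed CCR1, 4 adhesion genes were higher and 14 lower than in inflamed CCR2+ve monocytes, 3 partners were higher and 5 lower, and 5 adapters were higher and 5 lower, with medians of −2.30, −0.30 and −0.03 beside −0.01 over all genes. Against inflamed CCR1/2+ve monocytes the counts were 4 and 12, 3 and 5, and 4 and 5, with medians of −1.44, −0.42 and −0.42 beside 0.00. Over all genes 14.4% were higher and 16.8% lower in the first comparison, and 13.2% and 14.6% in the second. The 4 of 29 adhesion genes that were higher are close to the share over all genes in each. Vcam1 was at 464 ± 47.9 CPM (SD, n = 4), and Cxadr, the partner of JAML, was at 16.9 ± 4.46 CPM (SD, n = 4) against 0.145 ± 0.129 CPM (SD, n = 3) in inflamed CCR1/2+ve monocytes, while Jaml was low there. Siglec1, a sialic acid-binding receptor of macrophages, was at 0.115 CPM against 16.3 CPM in CCR2+ve monocytes, and L1cam at 1.51 against 24.4 CPM. Cd48 was lower than in CCR1/2+ve monocytes by a log2 fold change of −2.80 (SE 0.13), and Spn, leukosialin, was higher by 1.19 (SE 0.12). Itga4, the α4 integrin subunit that binds VCAM-1, was at 50.6 against 300 CPM in CCR2+ve monocytes, Itgax at 0.115 against 4.38 CPM, and Gpc1 at 80.3 against 3.44 CPM. Actn1 was at 120 against 2.31 CPM and Msn at 1286 against 3684 CPM. St8sia4, which encodes a polysialyltransferase that acts on NCAM1, was at 9.61 ± 1.38 CPM (SD, n = 4) against 199 ± 19.5 CPM (SD, n = 4), a log2 fold change of −4.36 (SE 0.14, adjusted p = 1.06e-13), in the libraries where Ncam1 itself was highest.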

How the data were processed

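Bulk RNA-seq counts of sorted bone marrow cells were analysed in 19 libraries of 5 groups, taken from the sample labels. The authors ran fastp on the paired-end reads, aligned these to GRCm38 with STAR 2.7.10a, keeping reads with 1 alignment, and deposited raw read counts per gene of Ensembl release 91, not normalized. Whether the counts were taken by strand is not given in the sources used here. Of 20 columns, 1 matched no sample label and was not used. Depth was 22268658 to 30502009 reads on genes per library, and 3 reads over a group was taken as the floor. Reads were fewest for Cadm1, Cadm3 and F11r outside the inflamed monocytes (8 to 51 reads of F11r a library), and for Jaml in inflamed CCR1 libraries (82 to 96), where counting error is a large part of the spread.

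Of the 50854 genes, the 18652 whose mean over the 19 libraries reached 1 read were tested. Each comparison was fitted on its own libraries with the quasi-likelihood F test of edgeR 4.0.16 in R 4.3.3, with TMM factors, robust dispersions and no covariates, and Benjamini-Hochberg adjustment over all genes tested. The standard error is the log2 fold change divided by the square root of F. Calls needed an adjusted p under 0.05 and a log2 fold change of 1 or more in size, after the study's cutoffs; the interaction of population and inflammation was called on the adjusted p alone. The exact two-sided permutation test over single libraries cannot go below 0.0286 for 4 against 4 and 0.0571 for 3 against 4, which cannot reach 0.05, and was run as a check only. Exon lengths came from GENCODE M21 and promoters from RefSeq. All members were named in each comparison, with up to 3 genes of each list with the smallest p among those past both cutoffs, and the 3 genes most correlated with each member. Some genes that this rule names are not reported here. The members and lists were chosen with earlier results of these data known. Alternatives were RLE factors, DESeq2 1.42.0, no filter, filterByExpr, no fold cutoff, 1 fit over 19 libraries, a replicate block and leaving out each library. No 2 libraries of a group differed by as little as sampling noise (chi-square per gene of 11.1 or more).

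Same-numbered libraries deviated together in the resting comparison (correlations of 0.334 to 0.594 over 7685 genes) and between inflamed CCR1 and inflamed CCR2 libraries (0.161 to 0.287). The main fits did not use this pairing, so the SEs and p-values given above are unpaired. It entered only as the replicate block, an alternative. With it the calls over all genes were 1055 against 792 in the resting comparison. Between inflamed CCR1 and inflamed CCR2 libraries they were 5593 against 5830. The pairing comes from these correlations and not from the labels.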

Additional observations from a re-analysis of the deposited data

Results flagged for a closer look

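Of 36 groups of 4 libraries tested for a library far from the others, 4 held one, where chance gives about 1 in 20. In each case 1 library lay further from its nearest neighbour than Dixon's 95% limit for 4 values allows. Alcam in resting CCR2 replicate 2 was the lowest of its group at 65.6 CPM, where the other libraries lay at 71.7 to 71.9 CPM. Cadm1 in resting CCR2 replicate 4 was the lowest of its group at 0.0416 CPM, which is 1 read. Cadm1 and Cadm3 in inflamed CCR1 replicate 1 were the highest of their group at 0.0910 and 0.136 CPM, which are 2 and 3 reads where the other libraries had 0.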

How the results depend on the processing

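Of 898 values of single members under alternatives, 832 kept their direction and side of the threshold, 26 lost a call, 12 gained one and 28 changed sign. F11r, Alcam and Icam1 kept their calls with inflammation in CCR1/2+ve monocytes in every alternative run, and so did F11r, Ncam1 and Alcam in CCR2+ve monocytes. Members called ranged from 2 to 4 with 1 library left out in the resting comparison (2 without resting CCR2 replicate 1), and from 3 to 5 in inflamed against resting CCR1/2+ve monocytes, where the replicate block gave 3. Against inflamed CCR1/2+ve monocytes the libraries labelled inflamed CCR1 gave 7 with no fold cutoff. The interaction gave 1 member, Icam1, with RLE factors, DESeq2, no filter, filterByExpr and the replicate block, and 0 to 1 with 1 library left out (adjusted p of 0.0267 to 0.197). It was 1 without resting CCR1/2 replicate 1, resting CCR2 replicate 2, inflamed CCR1/2 replicate 2 or inflamed CCR2 replicate 4. The values that changed sign were small or rested on few reads. With inflammation Pecam1 was 0.0174 in CCR2+ve monocytes in the fit over 19 libraries (−0.0998 to 0.0946 with 1 library left out), and in CCR1/2+ve monocytes 0.0769 with RLE factors, 0.0769 with DESeq2 and 0.12 over 19 libraries (−0.0877 to 0.196). Its interaction was −0.00085 with no filter, −0.026 with the block and −0.0856 to 0.20 with 1 library left out. With 1 library left out Cadm3 ranged from −1.28 to 0.37 in inflamed against resting CCR1/2+ve monocytes, Icam1 from −0.22 to 0.0053 and Cadm1 from −3.47 to 1.30 between the inflamed populations, and the interaction of Icam2 from −0.14 to 0.0134. Against inflamed CCR1/2+ve monocytes the libraries labelled inflamed CCR1 gave −2.65 for Cadm3 with the block (−2.66 to 0.50 with 1 left out) and −4.13 to 2.33 for Cadm1. Over all genes, 27 calls between the inflamed populations became 107 with DESeq2 (40.2% of them higher, against 70.4%), 53 with no filter, 53 over 19 libraries and 80 with the block (43.8% higher), and were 15 to 42 with 1 library left out (15 without inflamed CCR1/2 replicate 3, 17 without replicate 4, 42 without inflamed CCR2 replicate 1), and 74 interactions became 113 with RLE factors (75.2% positive, against 60.8%), 534 with DESeq2, 145 with no filter, 122 with filterByExpr and 222 with the block. With 1 library left out they were 0 to 253, with 0 without inflamed CCR1/2 replicate 3, 5 without resting CCR1/2 replicate 2, 7 without inflamed CCR2 replicate 1, 9 without resting CCR2 replicate 3 and 209 and 253 without resting CCR2 replicate 2 and inflamed CCR2 replicate 4. The 792 resting calls were 518 without resting CCR2 replicate 4. The cause was not tested. In the 2 comparisons where the numbers pair the libraries, the replicate block changed no call of a member, while in the interaction, which holds the resting libraries, it gave the call of Icam1. The fit over 19 libraries moved the median of inflamed against resting CCR1/2+ve monocytes by 0.13 (log2).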
